A study of Caenorhabditis elegans with 15 samples.

Results

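The vacuolar ATPase (V-ATPase) subunits described here are 10 genes of C. elegans, vha-1 (R10E11.8), vha-2 (R10E11.2), vha-3 (Y38F2AL.4), vha-4 (T01H3.1), vha-5 (F35H10.4), unc-32 (ZK637.8), vha-8 (C17H12.14), vha-11 (Y38F2AL.3), vha-12 (F20B6.2) and vha-13. They were chosen by the sequence name that a probe of the array carries, without its isoform letter. The list gave vha-13 as Y49A3.2, a name that matched 0 probes, and its probe was found under Y49A3A.2, the name RefSeq gives vha-13. The 10 genes had 11 probes out of 19268 gene probes, since unc-32 had a probe with the protein identifier CE30573 and another without an identifier. The brighter of these, the probe without an identifier, stands for unc-32 below.

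Whole worms of the wild-type strain N2 (Bristol), as fourth-stage larvae and young adults, were kept for 48 h in sediment of the Danube, the Elbe or the Rhine with E. coli as food. The rivers were sampled at sites of different contamination, with the Danube site as the least and the Elbe site as the most polluted. Each sediment had 5 arrays, 15 in all. An array stood for its own exposure, for which 24 vials were pooled, and a vial received 0.5 g of sediment and 20000 worms. A treatment without sediment was not among the arrays. On every array the sediment sample carried the dye Cy5 and a pool of RNA from all exposed worms and the laboratory control carried Cy3, so a value is the log2 ratio of a sample to that common reference. Since RNA came from whole worms of mixed tissues, a lower ratio may stand for fewer cells of a type or for less RNA per cell, which cannot be told apart.

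The V-ATPase is a rotary proton pump that spends ATP to acidify lysosomes, endosomes and secretory vesicles and, in some cells, the space outside the plasma membrane. Its membrane sector (V0) carries the protons through a ring of c-type proteolipids against the large subunit a. Its cytosolic sector (V1) binds and splits ATP between the A and B subunits, while stalk subunits such as C and E join both sectors. In yeast and insects the sectors are known to come apart and rejoin as the need for acidification changes. In C. elegans many of these genes are known for strong expression in the excretory cell and the intestine, and the a subunits divide the tissues between them.

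Among the 10 genes, vha-2 was the only probe with a strong signal. Its Cy5 signal had a median of 14341 over the 15 arrays and ranged from 2196 to 32413, and the spot lay above the 90th percentile of spots listed as empty on 13 arrays. vha-8 followed with a median of 3848 and lay above that percentile on 2 arrays. The probe of unc-32 without an identifier did so on 1 array, and the probes of vha-1, vha-3, vha-4, vha-5, vha-11, vha-12 and vha-13 on 0 arrays. The median Cy5 signal of empty spots was between 1127 and 1704 on an array, near the 1322 to 1985 of gene spots. vha-1, vha-4 and vha-5 had median signals below it, at 0.981, 0.955 and 0.682 of the median of empty spots.

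**Figure D1:**
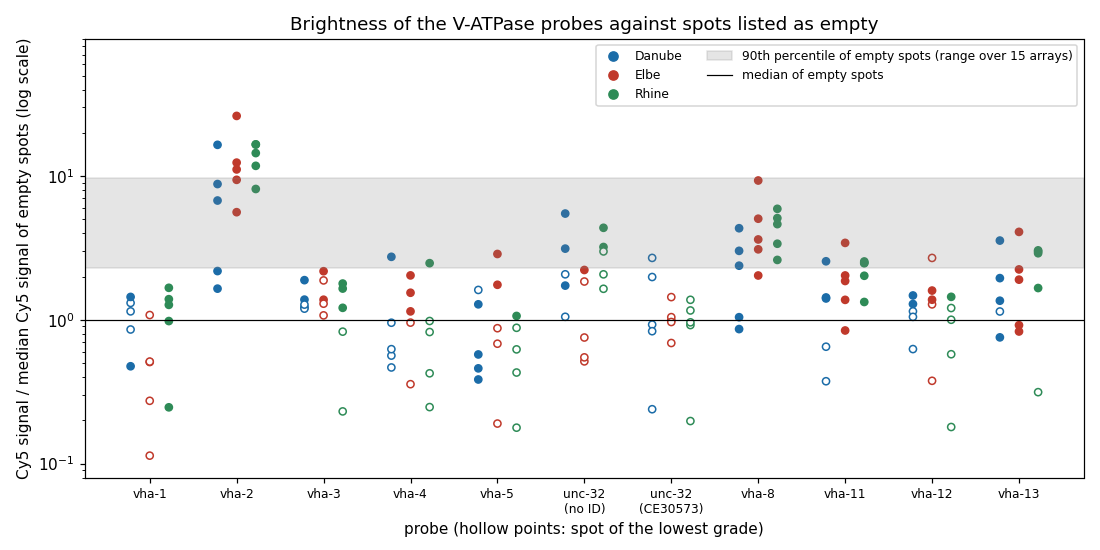
Cy5 signal of each V-ATPase probe divided by the median Cy5 signal of the empty spots on the same array, on a log axis, with 1 point per array (blue Danube, red Elbe, green Rhine; hollow points are spots of the lowest grade). vha-2 has a median of 11.1 times the empty spots and vha-8 one of 3.38, while the medians of the other probes lie between 0.682 and 2.07, on both sides of the line at 1 and below the grey band, which spans the 90th percentiles of empty spots.

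BlueFuse, the software that read the scans, grades every spot by a confidence score, and a probe passed the spot filter if, in each sediment, 3 or more of its 5 spots exceeded the lowest grade. vha-2 and vha-8 were above it on all 15 arrays, and vha-11 and vha-13 on 13 each. These 4 genes passed, 1 of the membrane sector and 3 of the cytosolic sector. The other 6 were above the lowest grade on 5 to 7 arrays, and the second probe of unc-32 on 0 arrays. By comparison, 5398 of the 19268 gene probes (28.0%) passed. Differences of the 4 genes come from the limma fit over those 5398 probes, and differences of the 6 others from the same fit over all gene probes. In the fit over 5398 probes the median width of a 95% interval was 1.59 on the log2 scale, so that a typical interval spanned more than a doubling.

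A gene was counted as changed by the thresholds of the study's methods, a fold of 1.4 or more (or of 0.7 or less) together with an unadjusted p under 0.05, and separately by an adjusted p under 0.05 (limma, Benjamini-Hochberg over all probes tested). For Elbe against Danube, 1 of the 4 genes that passed the filter was past the methods' thresholds (vha-11, higher in Elbe), where 6.15% of all 5398 probes were. For Rhine against Danube the count was 0 of 4, with 12.7% of all probes, and for Elbe against Rhine 0 of 4, with 10.6%. With adjusted p-values the count was 0 of 4 in each comparison, against 0.0185% of all probes for Elbe against Danube (1 probe), 0% for Rhine against Danube and 0% for Elbe against Rhine. At an unadjusted p under 0.05 limma had 1, 0 and 0 of the 4 genes, where 6.21%, 12.8% and 10.7% of all 5398 probes were. The one-way test of the methods, run on the same ratios, had 0 past the thresholds in all 3 comparisons. Among the 6 genes outside the filter only unc-32 was past the thresholds, lower in Elbe than in Danube and than in Rhine, where the shares of all 19268 probes were 4.22% and 6.34% (6.74% for Rhine against Danube). The comparisons with Danube share its 5 arrays.

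**Figure D2:**
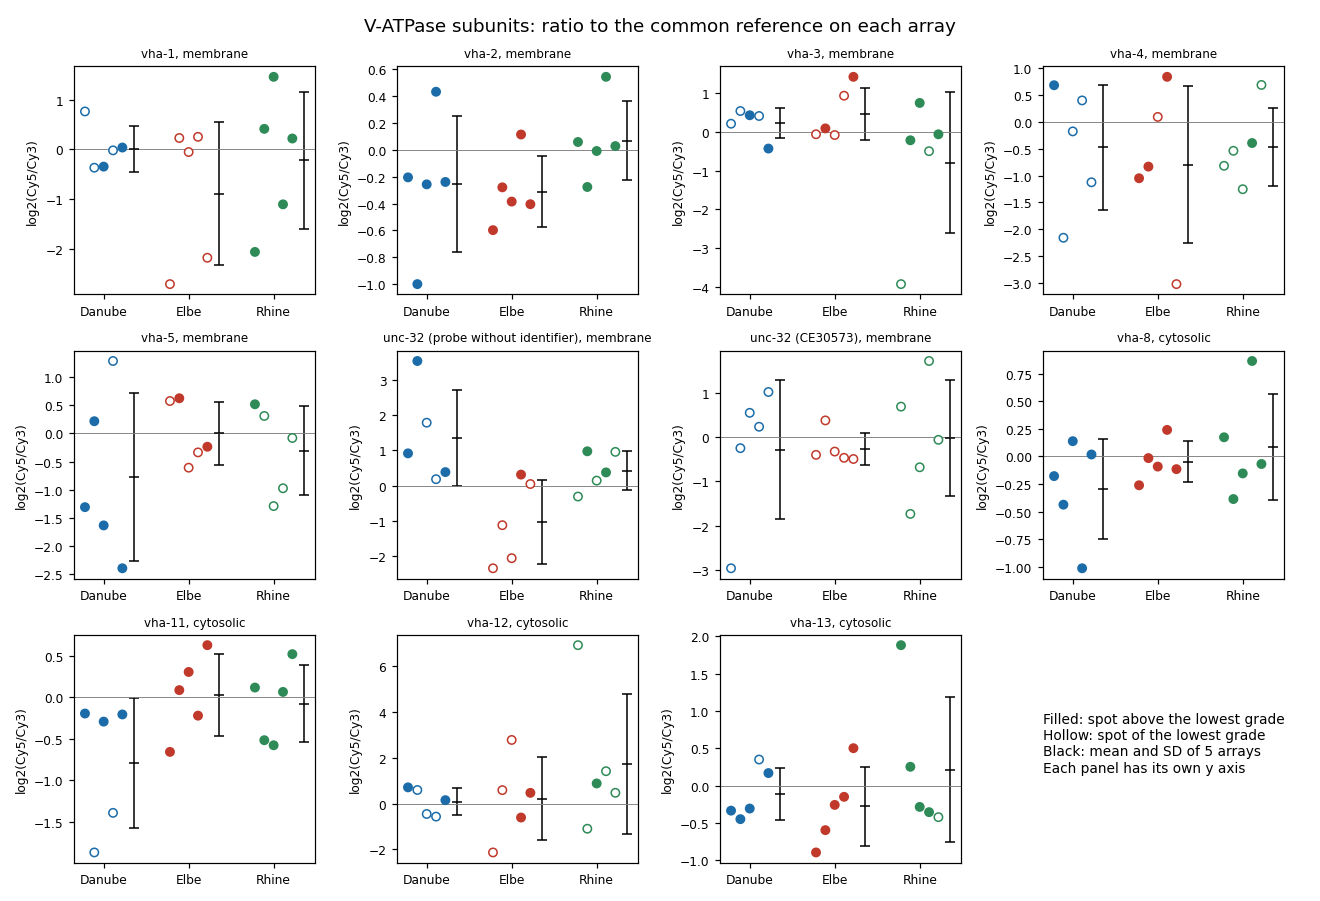
Log2(Cy5/Cy3) of each V-ATPase probe on each array, in 1 panel per probe with its own y axis (filled points are spots above the lowest grade, hollow points are spots of the lowest grade, black marks are the mean and SD of 5 arrays). The values of the 4 probes that passed the filter lie between -1.87 and 1.88, whereas hollow points reach 6.91 for vha-12 and -3.92 for vha-3, both on Rhine replicate 1.

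The c-type proteolipids form the proton-carrying ring. vha-2 encodes one of them, and its log2 ratios were -0.21, -1.0, -0.26, 0.43 and -0.24 in Danube replicates 1 to 5, -0.60, -0.28, -0.39, 0.11 and -0.40 in Elbe, and 0.06, -0.28, -0.01, 0.54 and 0.03 in Rhine. The 3 groups overlapped, and Danube held both its lowest value and one of its highest. The group means were -0.25 ± 0.51 (SD, n = 5) for Danube, -0.31 ± 0.26 for Elbe and 0.07 ± 0.30 for Rhine. vha-2 in Elbe was thus close to Danube, with a log2 difference of -0.06 and a 95% interval from -0.62 to 0.51. The difference was 0.32 (SE 0.27) for Rhine against Danube and -0.38 (SE 0.27) for Elbe against Rhine. The last of these had an exact two-sided permutation p of 0.0714 and a limma adjusted p of 0.623. An exact test over the 252 splits of 5 against 5 arrays can give no p below 0.00794.

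vha-3, a proteolipid that shares the protein identifier CE06290 with vha-2, was measured by a probe of its own. Its ratios were 0.21, 0.54, 0.43, 0.41 and -0.43 in Danube, -0.06, 0.09, -0.08, 0.93 and 1.42 in Elbe, and -3.92, -0.22, 0.74, -0.50 and -0.06 in Rhine. The value on Rhine replicate 1 stood far below all others and came from a spot of the lowest grade. With it the difference between Elbe and Rhine was 1.25 (SE 0.68), with an exact permutation p of 0.135, and without that array it was 0.47. Rhine against Danube had a difference of -1.02 (SE 0.68), which became 0.16 when spots of the lowest grade were left out.

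vha-1, the proteolipid gene next to vha-2 on its chromosome, had ratios of 0.76, -0.37, -0.34, -0.02 and 0.04 in Danube. In Elbe they were -2.71, 0.23, -0.05, 0.25 and -2.18, and in Rhine -2.06, 0.41, 1.46, -1.10 and 0.22. The spread was about 3 times wider in Elbe (SD 1.43) and Rhine (SD 1.38) than in Danube (SD 0.46), and all 5 Elbe spots were of the lowest grade. The differences were -0.91 (SE 0.71) for Elbe against Danube and -0.23 (SE 0.71) for Rhine against Danube, and neither exceeded the spread between arrays (exact permutation p of 0.302 and 0.738). vha-4 encodes the larger proteolipid c'' and had group means of -0.47 ± 1.17 (SD, n = 5) in Danube, -0.79 ± 1.46 in Elbe and -0.46 ± 0.72 in Rhine. Its lowest ratio was -3.03, on Elbe replicate 5, and its highest 0.84, on Elbe replicate 4, so that the Elbe arrays alone spanned all values of vha-4. The sign of its Rhine to Danube difference of 0.01 (SE 0.69) has no meaning at this error.

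The a subunits anchor the pump to a membrane and differ by tissue. VHA-5 serves the hypodermis and excretory canal, and UNC-32 is the a subunit of neurons, where it acidifies synaptic vesicles. vha-5 had ratios of -1.31, 0.22, -1.64, 1.29 and -2.40 in Danube, 0.58, 0.63, -0.61, -0.34 and -0.24 in Elbe, and 0.52, 0.31, -1.29, -0.98 and -0.08 in Rhine. All 5 Elbe values lay above the Danube mean of -0.77, but inside the Danube range. The Elbe to Danube difference was 0.77 (SE 0.63) with an exact permutation p of 0.31. It passed the methods' thresholds with array weights (1.37, SE 0.52, unadjusted limma p of 0.0191) and without Danube replicate 4 (1.29, SE 0.55, unadjusted limma p of 0.034), while it was 0.33 (SE 0.79) with a single loess curve per array and 0.0764 (SE 0.61) in the authors' table of processed values. In a fit blocked on slide series, where Danube replicate 5 alone stands for Danube, it was 2.41 (SE 0.99, unadjusted limma p of 0.0288).

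unc-32 had the largest difference among the 10 genes. On the probe without an identifier the ratios were 0.92, 3.54, 1.79, 0.18 and 0.39 in Danube, -2.34, -1.12, -2.06, 0.31 and 0.05 in Elbe, and -0.31, 0.98, 0.14, 0.38 and 0.96 in Rhine. The Elbe values were split, with 3 below all arrays of Danube and Rhine and 2 within the range of Danube or Rhine. The Elbe to Danube difference was -2.39 (SE 0.66), with an exact two-sided permutation p of 0.0159 and a limma adjusted p of 0.961. All 5 Elbe values lay below the Danube mean, and Danube replicate 4 overlapped with Elbe replicate 4. Elbe against Rhine gave -1.46 (SE 0.66), with an exact permutation p of 0.0476 and a limma adjusted p of 0.779.

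These unc-32 spots were above the lowest grade on 3 Danube arrays, 1 Elbe array and 2 Rhine arrays. The 3 low Elbe spots were all of the lowest grade, with Cy5 signals of 876, 1077 and 682. When spots of the lowest grade were left out, the Elbe to Danube difference was -1.30 (SE 1.18), which still passed the fold threshold but not the p threshold (unadjusted limma p of 0.307). For Elbe against Rhine it was then -0.36 (SE 1.25, unadjusted limma p of 0.781). The Elbe to Rhine call was also lost with a single loess curve per array (-1.05, SE 0.67) and with the one-way test without moderation. The Elbe to Danube call was kept in both of these settings, with array weights and when any single array was left out. Leaving out single arrays, the Elbe to Danube difference ranged from -2.73 to -1.85. The scans of Danube replicates 1 to 4 had lower image numbers than those of Danube replicate 5 and all Elbe and Rhine arrays. These are called the earlier and the later slide series here, though no label names a series or a date. The split lies under every comparison with Danube, for all genes named here. Sediment and slide series cannot be told apart in those comparisons except through Danube replicate 5. A fit blocked on slide series compares Elbe or Rhine with Danube replicate 5 alone. In it the Elbe to Danube difference of unc-32 was -1.42 (SE 1.14). The second probe of unc-32 (CE30573), whose spots were all of the lowest grade, had an Elbe to Danube difference of 0.02 (SE 0.72) and an Elbe to Rhine difference of -0.25 (SE 0.72). The difference past the thresholds was thus on 1 of the 2 probes of unc-32. For Elbe against Rhine the call was lost without any of Elbe replicates 1, 2 and 3 or Rhine replicates 2, 3, 4 and 5, with differences between -1.53 and -1.13 in those cases.

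The 4 genes of the cytosolic sector included 3 that passed the filter. vha-8 encodes subunit E of the peripheral stalk and, after vha-2, had the brightest probe. Its ratios were -0.18, -0.44, 0.14, -1.01 and 0.02 in Danube, -0.26, -0.01, -0.09, 0.24 and -0.11 in Elbe, and 0.17, -0.38, -0.15, 0.86 and -0.07 in Rhine. Elbe values were tight (SD 0.18, n = 5) and all above the Danube mean of -0.29, but 3 Danube arrays lay within the Elbe range. The differences were 0.25 (SE 0.28) for Elbe against Danube, 0.38 (SE 0.28) for Rhine against Danube and -0.13 (SE 0.28) for Elbe against Rhine, and the exact permutation p was 0.333, 0.27 and 0.675.

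vha-11 encodes subunit C, which clamps the sectors together, and was the only gene past the methods' thresholds among those that passed the filter. Its ratios were -0.19, -1.87, -0.29, -1.39 and -0.21 in Danube, -0.66, 0.09, 0.31, -0.22 and 0.63 in Elbe, and 0.12, -0.52, -0.58, 0.07 and 0.52 in Rhine. Danube replicates 2 and 4 were low and were the only 2 arrays on which the vha-11 spot had the lowest grade. The other 3 Danube values lay within the Elbe and the Rhine range. Elbe exceeded Danube by 0.82 (SE 0.37), a fold of 1.77, with a limma adjusted p of 0.786 and an exact permutation p of 0.103. Rhine exceeded Danube by 0.71 (SE 0.37), with a limma adjusted p of 0.426 and an exact permutation p of 0.135, and Elbe and Rhine differed by 0.11 (SE 0.37). In both comparisons all 5 values lay above the Danube mean of -0.79.

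The vha-11 call for Elbe against Danube was lost when single arrays were left out. The difference was 0.55 without Danube replicate 2, 0.67 without Danube replicate 4, 0.81 without Elbe replicate 2, 0.75 without Elbe replicate 3 and 0.67 without Elbe replicate 5. It was 0.26 (SE 0.33) when spots of the lowest grade were left out and 0.24 (SE 0.64) in the fit blocked on slide series, which rests on Danube replicate 5 alone. For Rhine against Danube the call was made without Danube replicate 1 or 5, with a difference of 0.86 in either case. In the fit over all gene probes the same difference of 0.82 had a larger SE of 0.41 and was not past the thresholds.

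The A and B subunits form the ATP-splitting head. vha-13, for subunit A, had ratios of -0.33, -0.45, -0.31, 0.35 and 0.17 in Danube, -0.89, -0.59, -0.26, -0.15 and 0.50 in Elbe, and 1.88, 0.25, -0.28, -0.35 and -0.42 in Rhine. Rhine replicate 1 stood above all others, and without it the Rhine to Danube difference of 0.33 (SE 0.40) turned to -0.09. Elbe against Danube was -0.16 (SE 0.40) and Elbe against Rhine -0.49 (SE 0.40), with exact permutation p of 0.595 and 0.421. vha-12, for subunit B, was above the lowest grade on 5 arrays and had group means of 0.09 ± 0.58 (SD, n = 5) in Danube, 0.22 ± 1.80 in Elbe and 1.72 ± 3.05 in Rhine. Its value of 6.91 on Rhine replicate 1 came from a spot of the lowest grade with a Cy5 signal of 706. Rhine against Danube was 1.63 (SE 1.19) with that array and 0.33 without it.

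**Figure D3:**
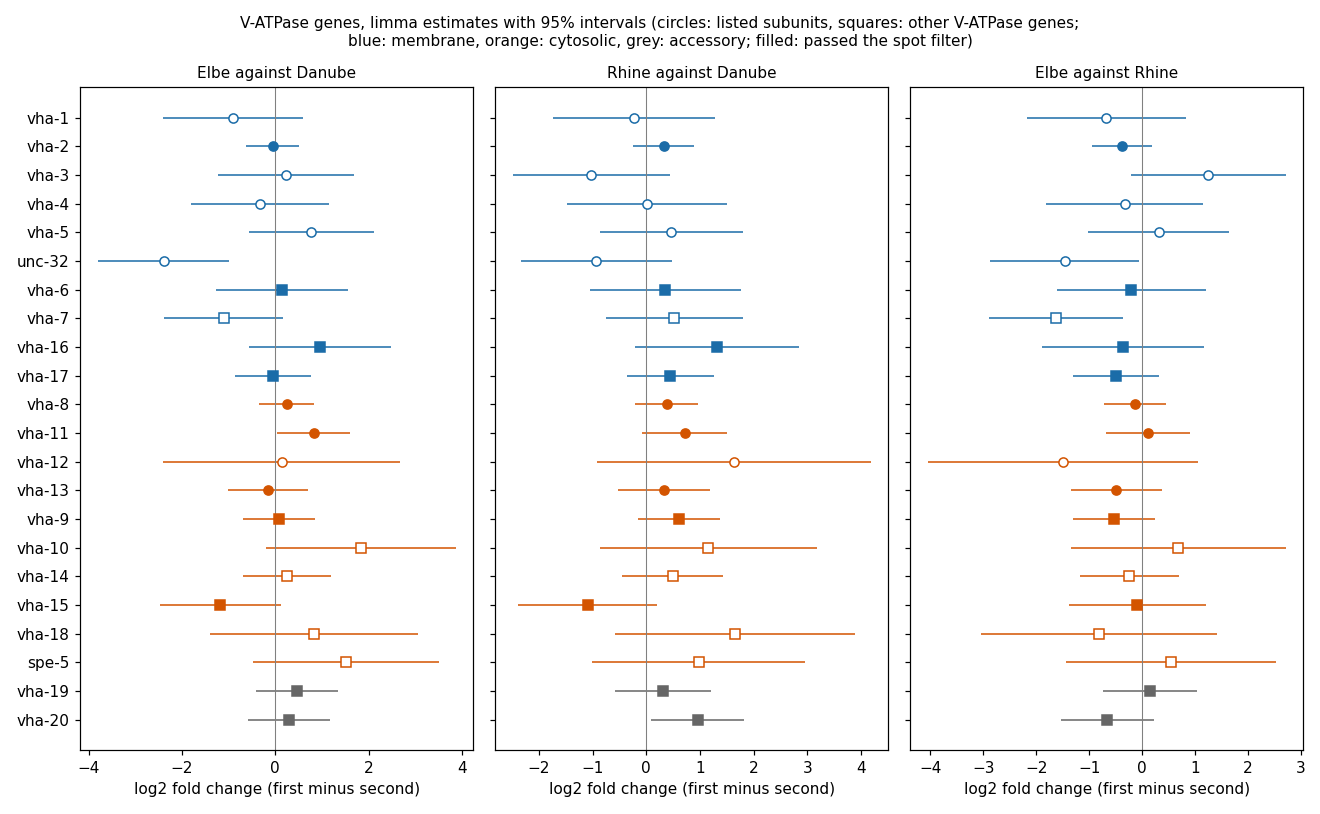
Log2 differences of 22 V-ATPase genes in the 3 comparisons, as limma estimates with 95% intervals (circles are the 10 listed subunits, squares the 12 other V-ATPase genes, filled symbols passed the spot filter). Most intervals cross 0, and those of unc-32 and vha-11 for Elbe against Danube, vha-20 for Rhine against Danube and unc-32 and vha-7 for Elbe against Rhine do not.

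The membrane and the cytosolic sector were set against each other on each array, as the mean log2 ratio of the 6 membrane genes minus that of the 4 cytosolic genes. This score was 0.18, 0.67, 0.19, 1.11 and -0.66 in Danube, -0.05, -0.23, -1.20, 0.54 and -1.10 in Elbe, and -3.36, 0.55, -0.0012, -0.84 and 0.17 in Rhine. Group means were 0.30 ± 0.66 (SD, n = 5) in Danube, -0.41 ± 0.73 in Elbe and -0.70 ± 1.57 in Rhine. The membrane sector thus had the lower mean relative to the cytosolic sector in Elbe and Rhine than in Danube, by -0.70 and -0.99, but the groups overlapped and the score carries no test. Rhine replicate 1, with vha-12 and vha-3 at opposite extremes, moved the Rhine difference to -0.33 when left out and turned Elbe against Rhine from 0.29 to -0.38. In a fit blocked on slide series, and so against Danube replicate 5 alone, the differences were 0.26 for Elbe and -0.03 for Rhine. Without spots that lack a protein identifier, which puts the CE30573 probe in place for unc-32, they were -0.30 and -0.79. With array weights they were -0.59 and -0.16.

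With the 4 genes that passed the filter, 1 of them in the membrane sector, the score differed by -0.36 for Elbe against Danube and -0.15 for Rhine against Danube. With all 9 sector subunits that passed it, 4 membrane and 5 cytosolic, the differences were 0.29 and 0.42. These rested on Danube replicate 2, where the spot of vha-16, at -4.94, had the lowest grade, and without that array they were -0.0788 and 0.0524. In the fitted differences, 2 of the 6 membrane members and 3 of the 4 cytosolic members were above 0 for Elbe against Danube, with medians of -0.19 and 0.19. For Rhine against Danube 3 of 6 and 4 of 4 were above 0, with medians of -0.11 and 0.55. Of all 5398 probes that passed the filter, 57.1% and 69.8% were above 0 in these comparisons. Only 1 membrane and 3 cytosolic members belong to those probes, and the other members come from the fit over all gene probes. The median over all 5398 probes that passed the filter was 0.07 for Elbe against Danube, 0.24 for Rhine against Danube and -0.17 for Elbe against Rhine, so differences of this kind are to be read against those shifts.

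**Figure D4:**
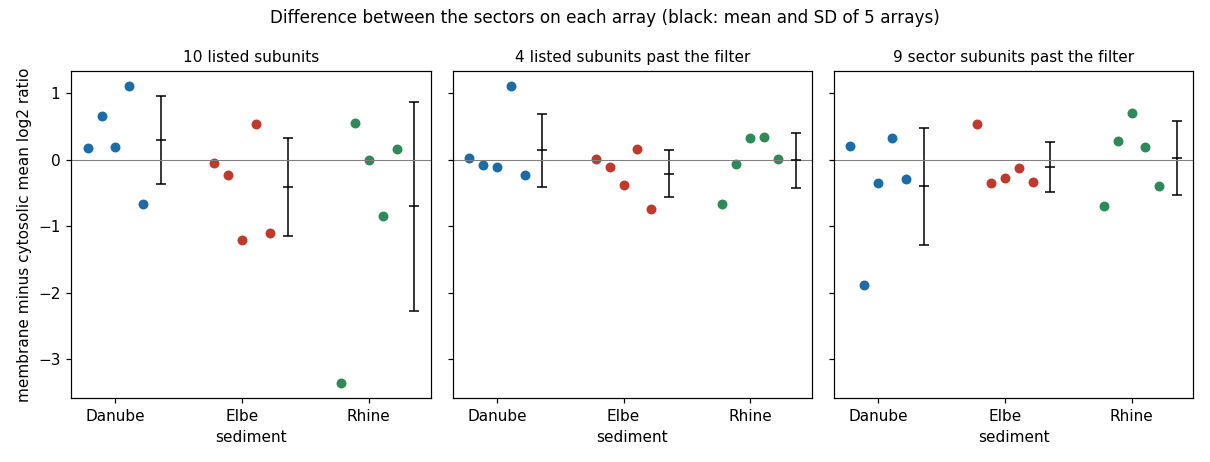
Mean log2 ratio of membrane genes minus that of cytosolic genes on each array, for the 10 listed subunits, the 4 that passed the spot filter and the 9 V-ATPase sector subunits that passed it (points are arrays, black marks are the mean and SD of 5 arrays). The low point at -3.36 in the left panel is Rhine replicate 1, and the 3 sediments overlap in every panel.

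The array held 12 further V-ATPase genes, of which 7 passed the filter. None of the 7 was past the methods' thresholds for Elbe against Danube or for Elbe against Rhine, where 6.15% and 10.6% of all 5398 probes were. For Rhine against Danube vha-20, an accessory subunit, was past them, where 12.7% of all 5398 probes were. The median difference of the 7 was 0.14 for Elbe against Danube, 0.45 for Rhine against Danube and -0.36 for Elbe against Rhine. It was 0.09, 0.35 and -0.26 for the 4 listed genes that passed, and 0.07, 0.24 and -0.17 for all 5398 probes. vha-20 had ratios of 0.24, -0.92, -0.42, -0.73 and 0.16 in Danube and 1.66, 0.19, -0.47, 1.67 and 0.05 in Rhine. The Rhine to Danube difference was 0.95 (SE 0.41), with a limma adjusted p of 0.366. Rhine replicates 1 and 4 were the highest arrays, and the 2 lowest Danube values, on replicates 2 and 4, came from spots of the lowest grade. vha-7, an a subunit outside the filter, was lower in Elbe than in Rhine by -1.63 (SE 0.60, limma adjusted p of 0.776), with 5 of 15 spots above the lowest grade.

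Other subunits of the pump had values as wide as these without being past the thresholds. vha-16, the d subunit that seats the stalk on the ring, had a log2 difference of 1.32 (SE 0.72) for Rhine against Danube, and its Danube values ranged from -4.94 on replicate 2 to 0.18. vha-15, subunit H, differed by -1.18 (SE 0.61) for Elbe against Danube and by -1.09 (SE 0.61) for Rhine against Danube, with 3.30 on Danube replicate 3. Both extreme spots had the lowest grade.

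The pump acidifies lysosomes and, in mammals, takes part in amino acid sensing by TOR complex 1 on the lysosome surface, through the Ragulator complex and the Rag GTPases. Of 22 genes of lysosomes and of the TOR pathway, 21 were on the array and 11 passed the filter. Their median difference was -0.06 for Elbe against Danube, 0.19 for Rhine against Danube and -0.30 for Elbe against Rhine. The medians over all 5398 probes were 0.07, 0.24 and -0.17 in the same order. Past the methods' thresholds were 1, 2 and 2 of the 11, where 6.15%, 12.7% and 10.6% of all 5398 probes were. None of the 11 had an adjusted p under 0.05.

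The cysteine protease gene cpr-1 was higher in Elbe than in Rhine, by 1.14 (SE 0.27, limma adjusted p of 0.196), and lower in Rhine than in Danube, with a difference of -0.70 (SE 0.27). Its Rhine ratios were -1.02, -0.83, -0.18, -0.55 and -1.04 and its Elbe ratios 0.66, -0.15, 0.80, 0.03 and 0.73, so that the lowest Elbe array lay just above the highest Rhine array. lmtr-5, for a Ragulator subunit, was lower in Elbe than in both other sediments, with differences of -0.98 (SE 0.29) from Danube and -0.98 (SE 0.29) from Rhine. Its Elbe ratios of -0.69, -0.14, 0.28, -0.09 and 0.12 lay below all 5 Danube ratios, the lowest of which was 0.53, and overlapped with Rhine only through a Rhine array at 0.26. The adjusted p of lmtr-5 was 0.627 and 0.29 (limma). The share of all probes whose groups do not overlap was not counted, so the separations of cpr-1 and lmtr-5 have no background here. asp-4, an aspartyl protease of lysosomes, was higher in Rhine than in Danube by 0.86 (SE 0.31, limma adjusted p of 0.34). In cpr-1, lmtr-5 and asp-4, unlike all but vha-2 and vha-8 of the 10 subunits, all 15 spots were above the lowest grade. Outside the spot filter, cup-5, for a lysosomal cation channel, was past the thresholds for Rhine against Danube, at 2.18 (SE 0.78), and ragc-1, for a Rag GTPase, for Elbe against Rhine, at -1.40 (SE 0.42), with 4 and 5 of 15 spots above the lowest grade.

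The 4 members that passed the filter did not move as a tight group across the 15 arrays. Their 6 pairwise correlations ranged from -0.01 (vha-8 with vha-13) to 0.58 (vha-8 with vha-11), with a median of 0.27, where the median over all pairs of the 5398 probes was 0.06 and 90% of those pairs lay between -0.46 and 0.57. Arrays share the reference and the depth of their scan, so these are descriptions. Without Danube replicate 2 and Rhine replicate 1, the arrays with the lowest and the highest mean of the 4 members, vha-8 with vha-11 was at 0.57 and the other pairs were between -0.34 and 0.19.

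Neighbouring genes were compared as pairs. vha-1 and vha-2 lie next to each other, as do vha-3 and vha-11, with 0 protein-coding genes between them in RefSeq, and both pairs are known to be transcribed together as operons. Over 15 arrays vha-1 and vha-2 had a Pearson r of 0.16 (permutation p = 0.561) and a Spearman rho of 0.28 (permutation p = 0.313). vha-3 and vha-11 had an r of -0.17 (permutation p = 0.481) and a rho of -0.26 (permutation p = 0.353). vha-2 and vha-3, which share a protein identifier, had an r of -0.21 (permutation p = 0.399) and a rho of -0.23 (permutation p = 0.42). Adjusted over the 3 pairs by Benjamini-Hochberg, the permutation p was 0.561 for each r and 0.42 for each rho. Without the 2 arrays farthest from the median of the first gene the 3 values of r were -0.16, -0.42 and -0.14. Within the later slide series (11 arrays) they were 0.22, -0.02 and -0.24. In each pair at least 1 probe was below the spot filter.

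Of 5394 other probes that passed the filter, the 5 whose ratios followed the mean of the 4 members most closely over 15 arrays were ent-2 (a nucleoside transporter, r = 0.90), swt-6 (a sugar transporter, r = 0.90), ZK673.2 (r = 0.90), unc-27 (troponin I of body muscle, r = 0.89) and col-164 (a cuticle collagen, r = 0.89). The mean of the 4 members was lowest on Danube replicate 2, at -0.94, and highest on Rhine replicate 1, at 0.56. Without these 2 arrays the 5 values of r were between 0.70 and 0.83. Of the other V-ATPase genes, vha-20 came nearest (r = 0.81, or 0.68 without the 2 arrays) at rank 45. It was followed by vha-16, which went from 0.68 to 0.17 without those arrays, and by vha-9, for subunit F, with 0.62 and 0.60. The rest of the 7 that passed the filter lay between -0.09 (rank 4221) and 0.32 (rank 2282), where the median over all 5394 probes was 0.24.

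Markers of tissues that a whole worm holds were all found on the array for muscle, germ line, neurons and hypodermis, and 7 of 8 for the excretory cell and for the intestine. The mean log2 ratio of the 3 hypodermal genes that passed the filter was between -0.97 and -0.24 on Danube arrays. It was between -0.16 and 1.24 on Elbe arrays and between -0.03 and 0.85 on Rhine arrays. Danube thus lay below both, though sediment and slide series can hardly be told apart here. How often other probes separate this way was not counted. Of these 3, sqt-3 and col-19, both cuticle collagens, were past the methods' thresholds, with Rhine to Danube differences of 1.76 (SE 0.65) and 0.82 (SE 0.28), and sqt-3 also for Elbe against Danube. The third, grd-10, had a Rhine to Danube difference of -0.14 (SE 0.31). For the excretory cell, where the pump is abundant, the 3 genes that passed ranged from -0.12 to 0.49 in Danube, from -0.32 to 0.43 in Elbe and from -0.40 to 0.53 in Rhine, and 0 were past the thresholds. For the intestine it was 0 of 6 as well. Of 3 muscle genes, unc-15, for paramyosin, was higher in Rhine than in Danube by 1.05 (SE 0.37) and lower in Elbe than in Rhine, at -0.94 (SE 0.37), with its highest ratio, 2.46, on Rhine replicate 1. Of 3 germ line genes and 2 neuronal genes that passed, 0 were past the thresholds. Outside the spot filter, exc-5 of the excretory cell was past them for Elbe against Rhine, at -1.13 (SE 0.52), and the neuronal kinesin unc-104 for Rhine against Danube, at 2.74 (SE 1.17). The part of these tissues in the differences of V-ATPase genes was not tested.

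The authors' deposited table of processed values was read beside the ratios. Its values followed the normalised Cy5 signal alone, and the reference was not divided out. vha-2 and vha-3, with 1 shared identifier, had 2 rows with identical values there, so that neither has a value of its own. Their shared rows differed by 0.80 (SE 0.40) for Elbe against Danube, with a limma adjusted p of 0.821. Past the methods' thresholds was vha-1 for Elbe against Danube, at -1.13 (SE 0.50, limma adjusted p of 0.808), where 6.12% of the rows of that table were. vha-8 differed by 0.72 (SE 0.37) and vha-11 by 0.53 (SE 0.38) in the same comparison, neither past the thresholds. The probe of unc-32 without an identifier could not be looked up there, since rows were named by identifier, and the other unc-32 probe differed by -0.49 (SE 0.77).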

How the data were processed

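For each array the authors deposited spot intensities of both channels on a linear scale, not normalised, as BlueFuse 3.4 wrote them, and a confidence score from which the spot grade derives (the lowest grade is a score up to 0.05). The authors also deposited a table of 18653 ratios to the median. It names no probes, and 15990 rows were named through the protein identifier whose Cy5 signal after print-tip loess they followed (1 minus r under 0.001).

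Log2(Cy5/Cy3) was normalised in limma 3.58.1 (R 4.3.3), with a loess curve for each of 48 print-tip blocks, and 2183 control and empty spots had weight 0. The 187 gene spots without a protein identifier were kept. Spots of 1 probe were averaged. Differences were tested with lmFit and eBayes over 15 arrays and adjusted by Benjamini-Hochberg. Alternatives changed the normalisation, the spot filter, the weights, the blocks and the arrays used. The fit was tested on simulated data. The only reference used was the RefSeq gene table (WBcel235), for names and neighbours, since the files name no build. Sequences and promoter motifs were not analysed here. By rule all 10 genes were described, other V-ATPase, lysosome and TOR genes and tissue markers were named where past the methods' thresholds, and the 5 probes most like the mean of the members were named by Pearson r. vha-9, vha-15, vha-16 and grd-10 fall outside that rule and were named after their values were seen. The members, lists and rules were chosen with earlier results of these data known. Replicates are separate exposures to sediment from 1 site per river, for which the paper reports that subsamples were combined. The p-values thus measure the spread between exposures, and not the spread between sediment samples or sites. Same-numbered replicates of different sediments deviated from their group means with correlations from -0.04 to 0.12, of which 2 of 15 were over 0.1. Replicates of different numbers were not compared in this way, so these values cannot decide whether the numbers pair the arrays. The main fit left the arrays unpaired.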

Additional observations from a re-analysis of the deposited data

Results flagged for a closer look

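In 33 sets of 5 arrays (11 probes in 3 sediments), 2 held an array whose gap to the nearest of the others was over 0.71 of the whole range, where chance gives about 1 set in 20. vha-3 was at -3.92 on Rhine replicate 1, with the next lowest Rhine array at -0.50 and the highest at 0.74. The unc-32 probe CE30573 was at 0.38 on Elbe replicate 2, with the other Elbe arrays between -0.49 and -0.33. Both spots had the lowest grade.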

How the results depend on the processing

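The count of members past the methods' thresholds for Elbe against Danube, 1 in the report (vha-11), was 0 with a single loess curve per array, with each array centred on its median, without spots of the lowest grade, with only the 2 groups compared, with array weights, without Danube 2 and Rhine 1, in a fit blocked on slide series and with the one-way test, and 0 to 1 when single arrays were left out. It was also 0 with good spots required on all 15 arrays, where only vha-2 and vha-8 were tested and vha-11 was not. For Rhine against Danube it was 2 with a single loess curve (15.2% of all probes), 3 with median centring (33.8% of all probes) and 0 to 1 when single arrays were left out. For Elbe against Rhine it was 1 with median centring (14% of all probes). With no spot filter it was 1 of 10 for Elbe against Rhine (unc-32, with 6.34% of all 19268 probes). In that setting the count for Elbe against Danube stayed at 1 of 10 (4.22% of all 19268 probes). The gene was then unc-32, and vha-11 was not past the thresholds. Under median centring the median of all probes was 0.80 for Rhine against Danube, against 0.24 in the report. The count of adjusted p under 0.05 was 0 for members in every setting run. The sector difference for Rhine against Danube was 0.42 with all subunits past the filter and 0.0524 without Danube 2 as well, choices made after seeing the data. Danube 2 and Rhine 1 were taken as the arrays of widest spread from earlier results, but by the SD of the log2 ratios here the widest were Rhine 1 and Rhine 5. Leaving these out, a choice made after seeing the data, changed no count.

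Signs turned for Elbe against Danube as follows. With a single loess curve vha-12 was at -0.0718. With median centring vha-2 was at 0.16, vha-3 at -0.28, vha-4 at 0.80 and vha-12 at -0.21. Without spots of the lowest grade vha-12 was at -0.50. Blocked on slide series, where Danube 5 alone stands for Danube, vha-4 was at 0.33 and vha-8 at -0.066. In the authors' value table vha-13 was at 0.0696. Without spots that lack a protein identifier, added after seeing the data, unc-32 was at 0.0197. Leaving out single arrays, vha-2 ranged from -0.24 to 0.12, vha-3 from -0.0114 to 0.36, vha-4 from -0.74 to 0.24 and vha-12 from -0.51 to 0.72.

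For Rhine against Danube, vha-4 was at -0.40 with a single loess curve, -0.41 with median centring, -1.08 without spots of the lowest grade, -0.0504 with array weights, -0.32 without Danube 2 and Rhine 1, -0.25 without Rhine 1 and Rhine 5 and -0.27 in the value table. vha-5 was at -0.15 with median centring and -0.41 in the value table. vha-3 was at 0.16 without spots of the lowest grade. vha-1 was at 0.13 with array weights, 0.14 without Danube 2 and Rhine 1 and 0.24 without Rhine 1 and Rhine 5. vha-13 was at -0.17 without the former pair, -0.0147 without the latter and -0.11 in the value table. unc-32 was at 0.0443 blocked on slide series and 0.27 without spots that lack an identifier. vha-12 was at -0.22 in the value table. Leaving out single arrays, vha-1 ranged from -0.65 to 0.23, vha-4 from -0.41 to 0.30 and vha-13 from -0.0878 to 0.49.

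For Elbe against Rhine, vha-4 was at 0.24, 1.21 and 0.0463 and vha-11 at -0.20 and -0.36, in the order single loess curve, median centring and, for vha-4, without spots of the lowest grade. vha-5 was at -0.12 with a single loess curve and -0.33 without spots of the lowest grade. In the value table vha-8 was at 0.40, vha-12 at 0.47 and vha-13 at 0.18. Leaving out single arrays, vha-4 ranged from -0.74 to 0.23, vha-8 from -0.25 to 0.0599 and vha-11 from -0.0433 to 0.28. The cause was not tested for any of these.

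With the replicate block the count was 1 for Elbe against Danube and 0 in the other comparisons, as in the report, and vha-11 stayed at 0.82. The value table gives no correlation for the pairs with vha-2 or vha-3. The number of arrays and signals near those of empty spots limit every value of the 6 members outside the filter.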
